A study of Homo sapiens with 8 samples.

Results

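The matrix metalloproteinases (MMPs) and their tissue inhibitors (TIMPs) were followed in DU145 cells, a human prostate cancer cell line. The 10 members were the rows of the deposited count table listed as MMP1, MMP2, MMP7, MMP9, MMP10, MMP13, MMP14, TIMP1, TIMP2 and TIMP3, among 23391 genes in all, and they were picked by symbol. RNA was sequenced in 8 libraries, 2 for each of 4 groups. DU145-pc3.1 cells carried the empty expression vector and DU145-Esrrb cells carried a vector for Esrrb, an orphan nuclear receptor. Each pool of cells was left untreated (with vehicle, by the design text) or was given 3 μM DY131, a synthetic ligand of the estrogen-related receptors Esrrb and Esrrg. All 4 groups were stably transfected, selected with Zeocine and kept in charcoal-stripped serum, so that the controls shared the selection. Each line was a pool of transfected cells, so an effect of Esrrb cannot be told apart from other differences between the pools. The length of the DY131 treatment was not given in the sources used here. The pair of libraries with both Esrrb and DY131 had 1 heading in common and no replicate numbers, and they are called a and b.

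MMPs are zinc-dependent proteases that cut the proteins of the extracellular matrix. Most are secreted as inactive proenzymes, whereas MMP14 is anchored in the cell membrane. TIMPs bind active MMPs and block them, and TIMP2 also takes part with MMP14 in the activation of the MMP2 proenzyme at the cell surface. In prostate cancer these enzymes are studied for their part in invasion and in growth in bone.

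Between 7858743 and 11551690 reads were counted on genes in a library. ESRRB, the gene of the vector, had between 0 and 3 reads in the DU145-pc3.1 libraries and between 99 and 143 in the DU145-Esrrb libraries, which went with the labels. The DY131-treated DU145-pc3.1 replicates differed from each other more than other replicates did, with a chi-square per degree of freedom of 7.10 against 1.29 to 2.60 in the other 3 groups. Of the 7 epithelial markers (keratins, EPCAM and CDH1), 6 were above the floor of 3 reads in every library, and their summed level was between 3796 and 4447 cpm, the reads of a gene scaled to the counted reads of its library. The sum was carried by keratins, KRT5 had at most 1 read, and CDH1 (E-cadherin) was lowest where MMP1 and MMP14 were highest. CDH1 averaged 161 ± 5.79 cpm in untreated DU145-pc3.1, 111 ± 4.59 in untreated DU145-Esrrb, 95.8 ± 24.1 in DY131-treated DU145-pc3.1 and 67.7 ± 7.72 in DY131-treated DU145-Esrrb cells (SD, n = 2 each). It was called lower in the last group than in the first (log2 fold change -1.25, adjusted p = 4.54e-07), and its part in the changes of the proteases was not tested. Markers of the same list went both ways. KRT8 and KRT19 had their highest means in the last group, at 1621 and 511 cpm, beside 1092 and 470 cpm in the first. KRT7, KRT18 and EPCAM had their lowest means there, at 1055, 801 and 78.5 cpm, beside 1490, 811 and 103 cpm. The prostate luminal markers KLK2 and KLK3 had 0 reads in every library, and the 4 markers of that list summed to between 31.1 and 48.6 cpm. Fibroblast markers, which would mark a cell type rich in MMP2 and TIMP3, summed to between 3.05 and 6.31 cpm over 7 genes, and leukocyte markers to between 58.5 and 91.9 cpm over 4 genes. The leukocyte sum was nearly all CD68, while CD3E had 0 reads, PTPRC at most 1 and CD14 at most 15. In bulk RNA, fewer cells with a transcript and less of it per cell cannot be told apart.

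Transcripts of 4 members were abundant enough to be tested and 6 were not. A gene was tested when it reached 1 cpm in at least 2 of the 8 libraries, as 13856 genes did. MMP1, MMP14, TIMP1 and TIMP2 passed this filter, and each was at or above 1 cpm in all 8 libraries. MMP7, MMP10 and TIMP3 had 0 reads in every library. MMP2, MMP9 and MMP13 had reads in some libraries but did not reach the filter. A floor of 3 reads corresponded to between 0.260 and 0.382 cpm, depending on the library, and the upper 95% Wilson limit of a count of 0 to between 0.333 and 0.489 cpm. Such limits describe counting error alone, since the reads carried no molecular identifiers and copies of 1 molecule could be counted more than once.

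Among the secreted gelatinases, which cleave denatured collagen and type IV collagen, neither was detected firmly. MMP2 (NM_001127891, chromosome 16, 55389700 to 55506691, plus strand, GRCh38) had 2 reads in replicate 2 of DY131-treated DU145-pc3.1 cells, 1 read in library b of DY131-treated DU145-Esrrb cells and 0 reads in the other 6 libraries. MMP9 (NM_004994, chromosome 20, 46008908 to 46016561, plus strand) had 2 and 8 reads in untreated DU145-pc3.1 cells, 0 and 5 in untreated DU145-Esrrb cells, 8 and 4 in DY131-treated DU145-pc3.1 cells, and 0 and 0 in DY131-treated DU145-Esrrb cells. The MMP9 counts of the DY131-treated pools did not overlap, as was the case for 72.7% of all tested genes, while those of untreated and DY131-treated DU145-Esrrb cells did, since 1 untreated library was also at 0. With no filter on low counts, MMP9 passed edgeR's quasi-likelihood test between the DY131-treated pools with an adjusted p of 0.00892 and between DY131-treated DU145-Esrrb and untreated DU145-pc3.1 cells with an adjusted p of 0.0178, on 12 reads or fewer a group. For the change with DY131 in DU145-Esrrb cells the adjusted p of MMP9 was 0.114. A share of 11.2% of the 50-base windows of MMP9 lay antisense to SLC12A5-AS1, and how the authors counted strand was not stated.

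**Figure D1:**
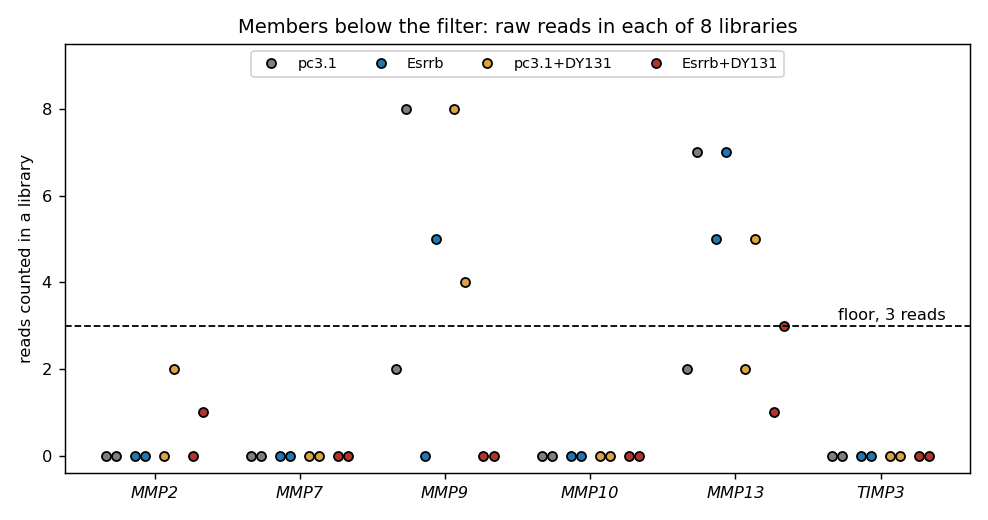
Raw reads (vertical axis) of the 6 members that did not reach the filter, as 1 point for each of the 8 libraries, coloured by group. The dashed line marks the floor of 3 reads. MMP7, MMP10 and TIMP3 sit at 0 in every library, and MMP9 and MMP13 reach at most 8 and 7 reads.

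The collagenases differed in level. MMP13 (NM_002427, chromosome 11, 102942995 to 102955734, minus strand), which cleaves type II collagen and is known from cartilage and bone, had 2 and 7 reads in untreated DU145-pc3.1 cells, 5 and 7 in untreated DU145-Esrrb cells, 2 and 5 in DY131-treated DU145-pc3.1 cells and 1 and 3 in DY131-treated DU145-Esrrb cells. Its counts overlapped between untreated and DY131-treated DU145-pc3.1 cells, while in DU145-Esrrb cells both untreated libraries were above both treated ones, in a comparison where 82.3% of all tested genes did not overlap. With no filter, MMP13 had adjusted p values of 0.381 or more in all 6 comparisons. MMP1, the interstitial collagenase, was tested and is described with the changes.

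MMP1, MMP7, MMP10 and MMP13 lie in a row of 9 MMP genes on chromosome 11, within 435 kb between bases 102520508 and 102955734 (GRCh38). Of these 9 genes, 5 had 0 reads in every library and 2 had more than 3 reads in all libraries together. MMP1 (NM_001145938, 102789920 to 102798160, minus strand) had 432 reads over the 8 libraries and MMP13 had 32. MMP10, the stromelysin whose end lies 9.29 kb from MMP1, had none, and MMP3, on the other side at 37.6 kb, had 3. The reads of the cluster were thus nearly all on 1 gene. MMP7 (matrilysin, NM_002423, 102520508 to 102530753, minus strand), a small protease made by glandular epithelium, lies at the other end of the row and had no reads.

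Promoters of MMP7 and MMP10, which had no reads, and of MMP14 and TIMP1, which had many, are shown as examples of members with and without the letters searched, chosen after these were seen. TIMP3, also without reads, held none of the motifs, so no relation between motif and level is read from them. They are RefSeq sequences of GRCh38.p14, from 250 bases before to 50 bases after the start of the gene and given 5′ to 3′ on the strand of the gene. Capitals mark an AP-1 element (TGANTCA) or a TATA box (TATAAA), searched on both strands together with the estrogen-related receptor element AAGGTCA. A promoter sequence was matched for 5 of the 10 members, MMP7, MMP10, MMP14, TIMP1 and TIMP3, and not for MMP1, MMP2, MMP9, MMP13 and TIMP2. The windows are chr11:102530698-102530997 (minus strand) for MMP7, chr11:102780579-102780878 (minus strand) for MMP10, chr14:22836335-22836634 (plus strand) for MMP14 and chrX:47582186-47582485 (plus strand) for TIMP1.
MMP7: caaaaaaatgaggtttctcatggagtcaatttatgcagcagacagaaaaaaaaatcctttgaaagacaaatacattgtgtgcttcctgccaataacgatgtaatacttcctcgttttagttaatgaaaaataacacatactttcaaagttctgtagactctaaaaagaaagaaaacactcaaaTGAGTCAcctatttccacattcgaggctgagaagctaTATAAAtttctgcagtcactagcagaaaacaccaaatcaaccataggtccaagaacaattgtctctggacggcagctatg
MMP10: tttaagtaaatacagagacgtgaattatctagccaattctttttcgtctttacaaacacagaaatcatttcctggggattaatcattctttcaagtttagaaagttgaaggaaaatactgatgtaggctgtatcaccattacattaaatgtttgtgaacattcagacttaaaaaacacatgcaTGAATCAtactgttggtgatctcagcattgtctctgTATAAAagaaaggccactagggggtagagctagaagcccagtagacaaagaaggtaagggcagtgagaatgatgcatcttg
MMP14: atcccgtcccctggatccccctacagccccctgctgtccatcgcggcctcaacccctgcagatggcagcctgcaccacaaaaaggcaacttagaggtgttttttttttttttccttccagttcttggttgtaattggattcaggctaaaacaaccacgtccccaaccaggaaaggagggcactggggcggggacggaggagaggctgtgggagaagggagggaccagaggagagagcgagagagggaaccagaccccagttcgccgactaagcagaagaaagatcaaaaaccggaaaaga
TIMP1: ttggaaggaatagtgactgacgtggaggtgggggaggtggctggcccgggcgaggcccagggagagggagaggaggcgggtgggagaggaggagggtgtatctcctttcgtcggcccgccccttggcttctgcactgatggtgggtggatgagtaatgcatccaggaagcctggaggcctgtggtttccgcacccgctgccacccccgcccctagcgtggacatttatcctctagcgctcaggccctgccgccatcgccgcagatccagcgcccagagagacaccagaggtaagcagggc

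The MMP7 window held TGAGTCA at 67 bases before the start and TATAAA at 30. The MMP10 window held TGAATCA, likewise at 67 bases before the start, and TATAAA at 31. The motifs did not overlap each other. None of the 3 motifs was found in the windows of MMP14, TIMP1 and TIMP3. Among 35116 promoter windows of the same length, 7.71% held TGANTCA, 11.5% held TATAAA and 3.92% held AAGGTCA. The GC content of the windows was 35.7% for MMP7, 36.3% for MMP10, 55% for MMP14, 65% for TIMP1 and 72.7% for TIMP3. A match describes the letters and not a bound site, and a missing match says only that the letters are not in this window.

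TIMP3 (NM_000362, chromosome 22, 32801701 to 32863043, plus strand), the inhibitor that binds to the matrix, had 0 reads in all 8 libraries. It lies within the gene SYN3 of the opposite strand, which had 0 or 1 read. TIMP1 (NM_003254, chromosome X, 47582313 to 47586789, plus strand) likewise lies within a synapsin gene of the opposite strand, SYN1, which had between 0 and 3 reads. The reads listed for TIMP1, between 397 and 707 in a library, were therefore not matched by reads listed for its host gene.

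Levels of the tested members are given in cpm of the effective library size, that is the total scaled by edgeR's TMM factor. Per length, as RPKM (reads scaled to transcript length and library size), TIMP2 was the most abundant member in untreated DU145-pc3.1 cells at a mean of 112, followed by MMP14 at 63.1, TIMP1 at 57.6 and MMP1 at 1.52. In DY131-treated DU145-Esrrb cells the order of the means was MMP14 at 132, TIMP2 at 110, TIMP1 at 56.0 and MMP1 at 6.32. Neighbours in this order did not overlap in RPKM within any group except MMP14 and TIMP2 in DY131-treated DU145-pc3.1 cells, where the values were 99.7 and 72.5 for MMP14 and 91.9 and 107.6 for TIMP2. MMP1 was far below the other 3 members in every library.

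MMP1 was highest in DY131-treated DU145-Esrrb cells. It had 2.57 and 3.43 cpm in untreated DU145-pc3.1 cells, 4.24 and 3.95 cpm in untreated DU145-Esrrb cells, 4.86 and 1.59 cpm in DY131-treated DU145-pc3.1 cells, and 13.0 and 11.9 cpm in DY131-treated DU145-Esrrb cells. Both libraries of the last group were above the other 6, and the libraries of DY131-treated DU145-pc3.1 cells lay on either side of all 4 untreated libraries. The share of all tested genes with such an order over 8 libraries was not counted. Between the last group and a single other group, 72.7% to 82.3% of all tested genes did not overlap. The group means were 3.00 ± 0.606, 4.10 ± 0.205, 3.22 ± 2.31 and 12.4 ± 0.826 cpm (SD, n = 2 each), in the same order. The raw reads behind these values ran from 16 to 105. A share of 2.92% of the windows of MMP1 was antisense to WTAPP1.

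MMP14 (NM_004995, chromosome 14, 22836557 to 22849027, plus strand), the membrane-type enzyme, was the most abundant protease of the list. It had 233 and 237 cpm in untreated DU145-pc3.1 cells, 273 and 270 cpm in untreated DU145-Esrrb cells, 372 and 271 cpm in DY131-treated DU145-pc3.1 cells, and 480.0 and 502 cpm in DY131-treated DU145-Esrrb cells. The DY131-treated DU145-Esrrb libraries were again above all others, and the DY131-treated DU145-pc3.1 libraries were above the untreated control libraries. How many of all tested genes had such an order was not counted. The group means were 235 ± 2.81, 272 ± 2.64, 321 ± 71.8 and 491 ± 15.5 cpm (SD, n = 2 each). Between 2448 and 4443 reads stood behind each value, and no window was shared with another gene.

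TIMP1, which inhibits most secreted MMPs, stayed within a narrow range. It had 51.1 and 51.7 cpm in untreated DU145-pc3.1 cells, 60.0 and 51.8 cpm in untreated DU145-Esrrb cells, 54.1 and 57.2 cpm in DY131-treated DU145-pc3.1 cells, and 51.7 and 48.1 cpm in DY131-treated DU145-Esrrb cells. TIMP2 (NM_003255, chromosome 17, 78852977 to 78925387, minus strand) had 411 and 410 cpm, 445 and 421 cpm, 336 and 393 cpm, and 406 and 401 cpm in the same order of groups. Its lowest values were those of DY131-treated DU145-pc3.1 cells, both below every other library, and the share of all tested genes like this was not counted. The log2 range of the group means was 0.16 for TIMP1 and 0.25 for TIMP2, against 2.07 for MMP1 and 1.06 for MMP14. TIMP2 shared 4.19% of its windows with CEP295NL on its own strand and 8.83% with genes of the opposite strand.

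**Figure D2:**
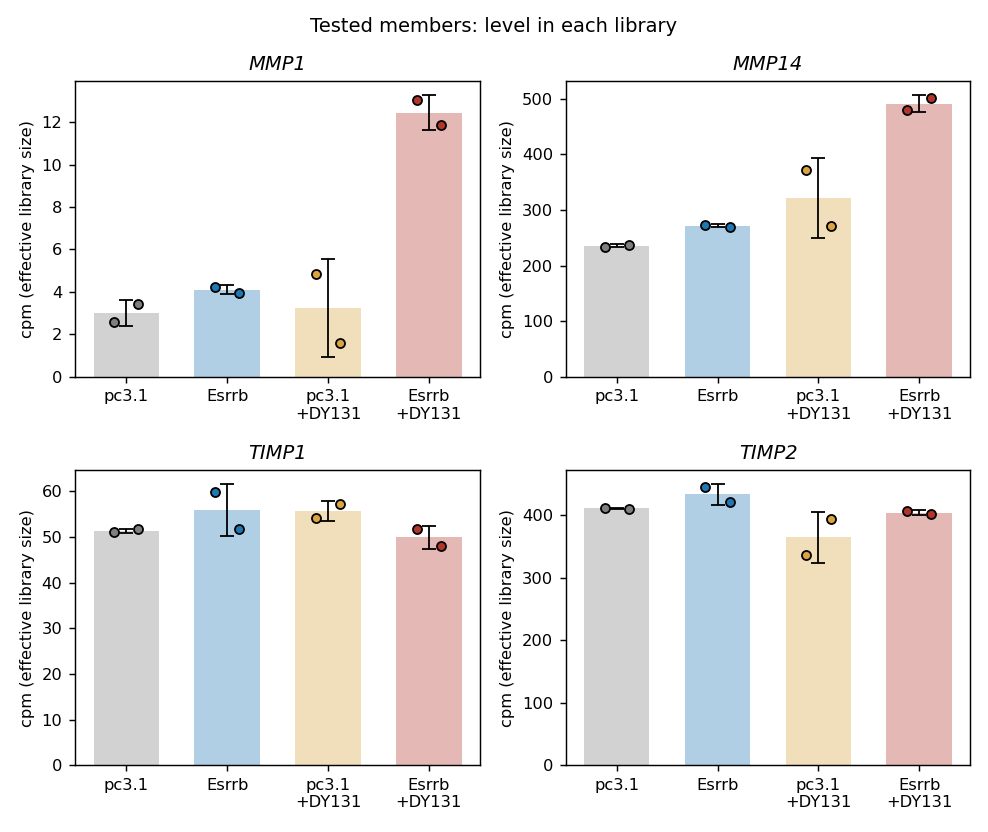
Level (vertical axes, cpm of the effective library size, starting at 0) of MMP1, MMP14, TIMP1 and TIMP2 in the 4 groups. Bars give the mean, whiskers the SD of 2 libraries and points the libraries. MMP1 and MMP14 are highest in both DY131-treated DU145-Esrrb libraries, at 13.0 and 11.9 cpm and at 480.0 and 502 cpm, while the TIMPs vary little.

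The first comparison asked what Esrrb did without its ligand. No member passed the test between untreated DU145-Esrrb and untreated DU145-pc3.1 cells. The log2 fold changes were 0.44 for MMP1 (SE 0.34, adjusted p = 0.565), 0.21 for MMP14 (SE 0.10, adjusted p = 0.316), 0.12 for TIMP1 (adjusted p = 0.504) and 0.08 for TIMP2 (adjusted p = 0.633), all by edgeR's quasi-likelihood F test with Benjamini-Hochberg adjustment over all tested genes. In this comparison 4.18% of all tested genes passed an adjusted p of 0.05 (1.68% higher and 2.5% lower) and 0.577% were called (0.18% higher), meaning that they also changed by at least 1 on the log2 scale. The interval of MMP1 ran from -0.28 to 1.16, so a change of the size used for calls was not excluded at this depth. In all 4 members the 2 groups did not overlap in cpm, as was the case for 51.6% of all tested genes. MMP14 passed in 4 of 18 alternatives, its values being between 0.20 and 0.23.

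DY131 in the control pool tested the ligand without added Esrrb. MMP14 rose, with a log2 fold change of 0.45 (SE 0.10, adjusted p = 0.00227), and no member was called. Passing genes were 37.4% of all tested genes here (18.9% higher and 18.5% lower), and called genes 4.19% (1.02% higher). The groups did not overlap for MMP14, TIMP1 and TIMP2, nor for 65.6% of all tested genes. MMP1 had a log2 fold change of 0.11 (adjusted p = 0.836), TIMP1 of 0.11 (adjusted p = 0.310) and TIMP2 of -0.17 (adjusted p = 0.0588). After a correction for exon junctions, length and GC content, TIMP1 had 0.31 and passed (adjusted p = 0.00669). The MMP14 value was 0.21 without replicate 1 of DY131-treated DU145-pc3.1 cells and 0.66 without replicate 2, and it passed in both. The MMP1 value was -0.91 without that replicate 1 (adjusted p = 0.0502) and 0.68 without replicate 2 (adjusted p = 0.0441), so that its direction rested on which of the 2 libraries was kept.

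With DY131 in DU145-Esrrb cells both tested proteases rose. MMP1 rose 3.02-fold, a log2 fold change of 1.60 (SE 0.27, adjusted p = 1.37e-04), and was called. MMP14 rose 1.81-fold, a log2 fold change of 0.85 (SE 0.10, adjusted p = 2.81e-06), which was under the fold for a call. Passing genes were 58.7% of all tested genes in this comparison (29.2% higher and 29.5% lower) and called genes 12% (2.98% higher). The groups did not overlap for any of the 4 tested members, nor for 82.3% of all tested genes. The change of MMP1 lay at percentile 99.3 of all tested genes and that of MMP14 at percentile 95.1. Without any 1 library the log2 fold change of MMP1 stayed between 1.53 and 1.66 and that of MMP14 between 0.82 and 0.89, and both passed in all 8 omissions. TIMP1 had a log2 fold change of -0.17 (SE 0.09, adjusted p = 0.107) and TIMP2 of -0.10 (SE 0.07, adjusted p = 0.213).

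Between the DY131-treated pools, the same proteases were higher with Esrrb. MMP1 had a log2 fold change of 1.93 (SE 0.29, adjusted p = 6.10e-05) and was called, and MMP14 one of 0.61 (SE 0.10, adjusted p = 1.08e-04). Passing genes were 50.4% of all tested genes (25.1% higher and 25.3% lower) and called genes 8.21% (2.15% higher). Again the groups did not overlap for the 4 tested members, nor for 72.7% of all tested genes. Without replicate 1 of DY131-treated DU145-pc3.1 cells the values were 2.94 for MMP1 and 0.85 for MMP14, and without replicate 2 they were 1.35 and 0.40, past the test in both cases. TIMP1 had a log2 fold change of -0.16 (adjusted p = 0.143) and TIMP2 of 0.15 (adjusted p = 0.0871). This comparison shares the DY131-treated DU145-Esrrb libraries with the one before, and the 2 are not independent.

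Against untreated DU145-pc3.1 cells, DY131-treated DU145-Esrrb cells had 2 called members, both proteases. MMP1 was 4.10-fold higher, a log2 fold change of 2.04 (SE 0.29, adjusted p = 2.46e-05), and MMP14 2.09-fold higher, one of 1.06 (SE 0.10, adjusted p = 3.23e-07). Called genes were 12.8% of all tested genes (3.31% higher) and passing genes 59.3% (29.1% higher and 30.1% lower). The groups did not overlap for MMP1, MMP14 and TIMP2, nor for 81.5% of all tested genes. TIMP1 had a log2 fold change of -0.04 (adjusted p = 0.678) and TIMP2 of -0.02 (adjusted p = 0.773). After the correction TIMP1 had 0.45 (adjusted p = 2.63e-04) and TIMP2 -0.20 (adjusted p = 0.0218), so that both passed and TIMP1 turned direction. The median over the 4 tested members was 0.52, beside -0.01 over all tested genes. This median lay between the values of the proteases and those of the TIMPs, and no member was near it.

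The interaction, the difference between the DY131 changes of both pools, was tested in the same model. For MMP1 it was 1.48 on the log2 scale (SE 0.46, 95% interval 0.51 to 2.46, adjusted p = 0.0208) and for MMP14 it was 0.40 (SE 0.14, adjusted p = 0.0364). Passing genes were 33.7% of all tested genes (16.1% higher and 17.6% lower) and called genes 6.28% (1.54% higher). The call of MMP1 was kept in 3 of 8 omissions of 1 library. It was lost without replicate 2 of untreated DU145-pc3.1 (log2 value 1.26, adjusted p = 0.127), replicate 2 of untreated DU145-Esrrb (1.42, adjusted p = 0.0590), library a (1.41, adjusted p = 0.0741) or library b (1.54, adjusted p = 0.0549), and it fell under the fold without replicate 2 of DY131-treated DU145-pc3.1 cells (0.91). MMP14 passed in 2 of 8 omissions, and its adjusted p reached 0.149. With DESeq2 the interaction of MMP14 had an adjusted p of 0.223, and after the correction one of 0.0524. TIMP1 had an interaction of -0.28 (SE 0.12, adjusted p = 0.0838) and TIMP2 of 0.07 (adjusted p = 0.610).

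**Figure D3:**
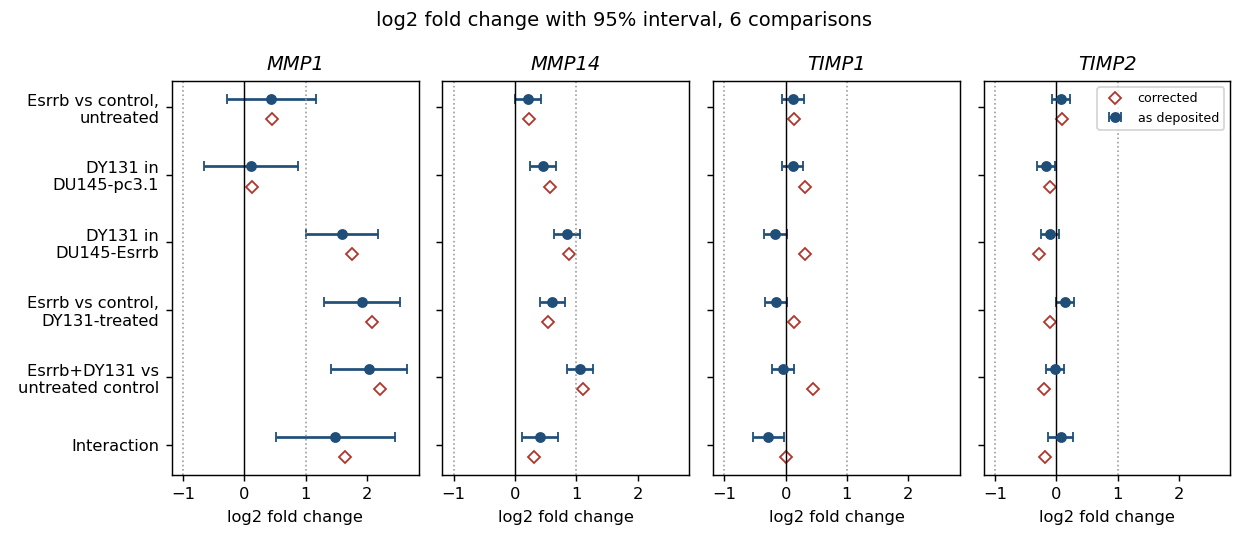
Log2 fold change (horizontal axes) of the 4 tested members in 6 comparisons. Filled points with bars are the values from the counts as deposited with their 95% intervals, open diamonds are the values after the correction for exon junctions, length and GC content, and dotted lines mark the fold for a call. The diamonds of MMP1 and MMP14 lie near the points, whereas those of TIMP1 lie on the other side of 0 for DY131 in DU145-Esrrb cells, at 0.32.

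A property of the DY131-treated DU145-Esrrb libraries moved with these changes. Over 13665 tested genes, the log2 fold change with DY131 in DU145-Esrrb cells had a Spearman correlation of -0.374 with the share of 50-base windows that cross an exon junction, whereas in DU145-pc3.1 cells the correlation was 0.0103. Genes rich in junctions therefore read lower in these libraries as a description across genes, which are not independent replicates. The junction share was 29.1% for TIMP1, 23.0% for MMP1, 11.97% for MMP14 and 5.44% for TIMP2, beside a median of 14.3%. After offsets that removed the trends with junctions, transcript length and GC content, DY131 in DU145-Esrrb cells gave log2 fold changes of 1.76 for MMP1 (adjusted p = 2.65e-05) and 0.88 for MMP14 (adjusted p = 5.48e-08). The same offsets turned TIMP1 to 0.32 (adjusted p = 0.00438) and gave -0.28 for TIMP2 (adjusted p = 0.00194), both past the test. The direction of TIMP1 with DY131 in DU145-Esrrb cells thus depended on the correction, and no direction is given for it here.

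The balance of the membrane protease to TIMP2, its partner in MMP2 activation, was taken as a ratio of reads per kb within each library. MMP14 over TIMP2 was 0.556 and 0.567 in untreated DU145-pc3.1 cells, 0.602 and 0.628 in untreated DU145-Esrrb cells, 1.08 and 0.674 in DY131-treated DU145-pc3.1 cells, and 1.16 and 1.23 in DY131-treated DU145-Esrrb cells. Both libraries of the last group were above the other 6, and all 4 untreated libraries were below all DY131-treated ones. The group means were 0.561 ± 0.00751, 0.615 ± 0.0182, 0.879 ± 0.290 and 1.19 ± 0.0484 (SD, n = 2 each). With DY131 in DU145-Esrrb cells the log2 ratio was 0.95 higher, and 1.17 higher after the correction. The exact permutation test, two-sided, gave p = 0.333 for this difference, the smallest value that 2 libraries against 2 allow.

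**Figure D4:**
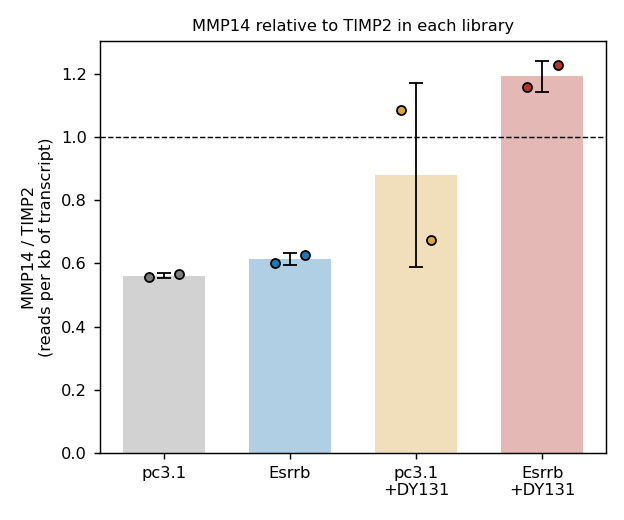
MMP14 over TIMP2 (vertical axis, ratio of reads per kb of transcript, starting at 0) in the 4 groups. Bars give the mean, whiskers the SD of 2 libraries, points the libraries, and the dashed line marks equal reads per kb. The untreated libraries lie between 0.556 and 0.628 and the DY131-treated DU145-Esrrb libraries at 1.16 and 1.23.

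Of the other 18 genes of the family, MMP3 to MMP28 and TIMP4, 7 were tested, 6 had 0 reads in every library and 5 had reads but did not reach the filter. No other family gene rose with DY131 in DU145-Esrrb cells and 2 fell, with a median of 0.09 over the 7 beside 0.00 over all tested genes. Over all tested genes, 29.2% rose and 29.5% fell in that comparison. MMP11 (stromelysin-3) had 58 and 55 reads in untreated DU145-pc3.1 cells, 82 and 65 in untreated DU145-Esrrb cells, 21 and 22 in DY131-treated DU145-pc3.1 cells and 21 and 17 in DY131-treated DU145-Esrrb cells. It fell in both pools, with log2 fold changes of -1.32 in DU145-pc3.1 cells (adjusted p = 7.12e-04) and -1.49 in DU145-Esrrb cells (adjusted p = 1.00e-04). MMP11 overlaps CHCHD10 of the opposite strand, which had between 146 and 339 reads. MMP15, a membrane-type enzyme like MMP14, was called lower in DU145-Esrrb cells (log2 fold change -1.03, adjusted p = 1.44e-06), from 568 and 464 reads to 166 and 203. After the correction its log2 fold change was -0.86, under the fold for a call.

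The membrane-type enzymes differed among themselves. With DY131 in DU145-pc3.1 cells MMP14 rose while MMP15 fell by 0.42 on the log2 scale (adjusted p = 0.00629) and MMP24, known from the nervous system, fell by 0.48 (adjusted p = 4.22e-04). After the correction MMP15 had -0.28 and no longer passed (adjusted p = 0.0504), while MMP24 had -0.34 (adjusted p = 0.00982). With DY131 in DU145-Esrrb cells MMP24 had a log2 fold change of 0.09 (adjusted p = 0.348), and its interaction was 0.57 (adjusted p = 0.00180). A share of 18.7% of the windows of MMP24 lay antisense to another gene. TIMP4 had between 5 and 19 reads in a library and was called higher in DY131-treated DU145-Esrrb than in untreated DU145-pc3.1 cells (log2 fold change 1.71, adjusted p = 0.00855). It overlaps SYN2 of the opposite strand, which had between 32 and 69 reads, so that its reads are uncertain where strand was not counted.

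**Figure D5:**
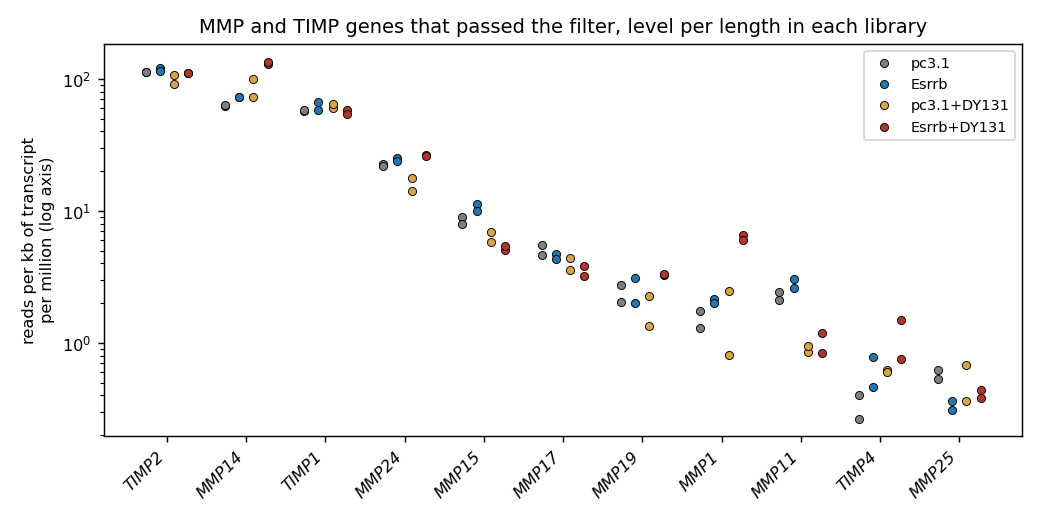
RPKM, the level per transcript length (vertical axis, logarithmic), of the 11 MMP and TIMP genes that passed the filter, ordered by their median, with 1 point for each library coloured by group. TIMP2, MMP14 and TIMP1 are the most abundant, and MMP1 stands out for the distance of the DY131-treated DU145-Esrrb libraries, at a mean of 6.32, from the rest.

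Proteins that activate MMPs or block them in other ways were tested in 12 of 14 cases. With DY131, 4 of these rose and 2 fell in DU145-pc3.1 cells, and 1 rose and 4 fell in DU145-Esrrb cells, with medians of 0.18 and -0.14. Among all tested genes, 37.4% and 58.7% passed in these comparisons. PLAU, the urokinase that makes plasmin, an activator of several MMPs, fell by 0.24 on the log2 scale in DU145-pc3.1 cells (adjusted p = 0.00485) and by 0.60 in DU145-Esrrb cells (adjusted p = 6.17e-07). PCSK6 fell by 0.73 in DU145-Esrrb cells (adjusted p = 1.75e-04). The 1 gene of the list that rose there was PCSK7, by 0.34 (adjusted p = 3.07e-04), and it rose by 0.36 in DU145-pc3.1 cells (adjusted p = 3.43e-04). Antisense to other genes lay 31.7% of the windows of PCSK6 and 43.8% of those of PCSK7. RECK, a membrane-bound inhibitor of MMP14 and MMP9, fell by 0.48 in DU145-Esrrb cells (adjusted p = 0.00536). In DU145-pc3.1 cells RECK had -0.26 (adjusted p = 0.112), and after the correction -0.35, which passed (adjusted p = 0.0250). Its interaction after the correction was -0.13 (adjusted p = 0.635). TFPI2, a secreted inhibitor of plasmin, was called lower in DY131-treated DU145-Esrrb than in DY131-treated DU145-pc3.1 cells (log2 fold change -1.20, adjusted p = 9.83e-05). With DY131 it rose by 0.86 in DU145-pc3.1 cells (adjusted p = 0.00125). In DU145-Esrrb cells its DY131 change was 0.05 (adjusted p = 0.845), so no fall with DY131 was seen there. PLAT, the tissue plasminogen activator, was called lower in DY131-treated DU145-Esrrb than in untreated DU145-pc3.1 cells (log2 fold change -1.34, adjusted p = 0.00262), on between 9 and 35 reads. After the correction the median of the list in DU145-Esrrb cells was 0.06, with 2 higher and 3 lower.

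The related ADAM and ADAMTS proteases, which shed membrane proteins or cut proteoglycans, were tested in 8 of 12 cases, and with DY131 in DU145-Esrrb cells 1 rose and 6 fell (median -0.36). ADAM15 was the 1 called gene there (log2 fold change -1.04, adjusted p = 5.91e-09), but after the correction its value was -0.35 and the list had 1 higher and 4 lower. With DY131 in DU145-pc3.1 cells, 2 rose and 3 fell, and ADAM12 was called higher (log2 fold change 1.18, adjusted p = 1.09e-04). Passing genes were 37.4% of all tested genes in that comparison and 58.7% with DY131 in DU145-Esrrb cells. The interaction of ADAM12 was -1.01 (adjusted p = 0.00584), and -0.98 after the correction.

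Transcription factors known from MMP promoters were tested in 12 of 14 cases. With DY131, 5 rose and 4 fell in DU145-pc3.1 cells and 8 rose and 3 fell in DU145-Esrrb cells, with medians of 0.10 and 0.33. The shares of all tested genes that passed were 37.4% and 58.7% in these comparisons. FOS, a partner of JUN in the AP-1 dimer, fell in both pools, with log2 fold changes of -3.35 (adjusted p = 3.68e-07) and -3.31 (adjusted p = 8.72e-08), from between 287 and 512 reads in untreated libraries to between 28 and 38. JUNB fell by 1.08 on the log2 scale in each pool (adjusted p = 1.54e-07 and 3.78e-08), and the value in DU145-pc3.1 cells was -0.80 after the correction. JUN had a log2 fold change of 0.04 in DU145-pc3.1 cells (adjusted p = 0.695) and rose by 0.60 in DU145-Esrrb cells (adjusted p = 1.12e-06), with an interaction of 0.56 (adjusted p = 2.52e-04). After the correction JUN had 0.19 in DU145-pc3.1 cells and passed (adjusted p = 0.0447), and its interaction was 0.22 and did not pass (adjusted p = 0.107). FOSL1 rose by 0.36 in DU145-Esrrb cells (adjusted p = 2.08e-04), and after the correction also in DU145-pc3.1 cells, by 0.42 (adjusted p = 1.13e-04). ETS1 rose in both pools, by 0.74 (adjusted p = 5.50e-07) and 1.08 (adjusted p = 2.09e-09), and the second value was 0.91 after the correction. ATF3 was the called gene of the interaction (log2 value 1.36, adjusted p = 0.00134). After the correction 6 genes of the list rose and 2 fell with DY131 in DU145-Esrrb cells.

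Matrix proteins that MMPs cut were tested in 8 of 14 cases. With DY131, 5 rose and 1 fell in DU145-pc3.1 cells, and 3 rose and 4 fell in DU145-Esrrb cells, with medians of 0.33 and -0.45. Over all tested genes the passing shares were 37.4% and 58.7%. After the correction 3 rose and 2 fell in DU145-Esrrb cells and the median was 0.11, so that the balance of the list reversed. COL4A1 and COL4A2, chains of basement membrane collagen, differed between the pools in their DY131 change. COL4A1 rose in DU145-pc3.1 cells, from 285 and 321 reads to 723 and 624 (log2 fold change 1.22, adjusted p = 1.17e-07), and had 445 and 376 reads without and 212 and 225 with DY131 in DU145-Esrrb cells (-0.45, adjusted p = 8.01e-04). The second change was lost after the correction, with a log2 fold change of 0.0073 for COL4A1 (adjusted p = 0.956) and, from -0.44, of 0.11 for COL4A2 (adjusted p = 0.203). Its interaction was -1.67 (adjusted p = 1.98e-07) and that of COL4A2 -1.44 (adjusted p = 2.04e-08). After the correction these interactions were -1.10 and -0.86, so the second no longer reached the fold for a call.

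The genes whose pattern over the 8 libraries was most like that of a member are given as a description, since all values share libraries and depth. For MMP1 they were DUSP5 (Pearson r = 0.985), FAM18B1 (0.979) and SNHG3 (0.979) on log2 cpm. For MMP14 they were ZNF445 (0.996), ARID3B (0.988) and ZNF589 (0.988), and for TIMP2 they were OAT (0.983), PSMD10 (0.970) and A1BG (0.968).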

How the data were processed

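The 8 libraries, 2 biological replicates for each pool and treatment per the study, were sequenced from 1 end over 50 bases. After quality trimming (FASTX-Toolkit) and alignment to hg18 (TopHat2), the authors counted reads per gene with MULTICOM-MAP, and the deposited values are these raw counts without normalization. How strand and reads of several genes were counted is not given in the sources used here. The authors' submission notes name hg18 and edgeR.

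Counts were tested with edgeR 4.0.16 in R 4.3.3, with TMM scaling, the filter of 1 cpm in at least 2 libraries (13856 of 23391 genes), 1 model of the 4 groups and the quasi-likelihood F test, with p-values adjusted by Benjamini and Hochberg's method. A gene passed at an adjusted p under 0.05 and was called if it also changed by at least 1 on the log2 scale. The members and gene lists were chosen with earlier results of these data known. All 10 members are named, and genes of the other lists where called in a comparison. MMP3, a neighbour of MMP1, and the markers KLK2 and KLK3 are named as well, although they were not tested. JUN, FOSL1, PLAU, PCSK6, PCSK7, RECK and MMP24 were added after their values were seen. So were the markers KRT5, KRT7, KRT8, KRT18, KRT19, EPCAM, CD68, CD3E, PTPRC and CD14.

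Gene positions, transcript lengths and junction shares come from GENCODE 29 on GRCh38, not from the hg18 used by the authors. RefSeq identifiers found the transcripts of 22018 listed genes and current or older symbols those of 721 and 147 more, which left 505 without one. Between 7858743 and 11551690 reads were counted in a library, and the limits of counts are 95% Wilson intervals. The SE of a log2 fold change was derived from that change and its F statistic. The 95% intervals of log2 fold changes come from this SE and the t distribution. The alternatives were edgeR's exact test, DESeq2 1.42.0, other scaling and filters, only the libraries compared, no fold threshold, the correction for junctions, length and GC content, each library left out, and a block for the replicate number. On simulated counts for DY131 in DU145-Esrrb cells, 199 of 200 genes changed 4-fold were recovered among 13636, with 2 false calls. The simulation gave every gene and group the same spread between replicates, left genes with few reads unchanged and held no trend with junctions. It therefore does not measure how well smaller changes are recovered in these libraries. Figures were drawn with matplotlib 3.10.9.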

Additional observations from a re-analysis of the deposited data

Results flagged for a closer look

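The change with DY131 differed between DU145-Esrrb and DU145-pc3.1 cells for both tested proteases, by a test of the difference itself (the interaction in edgeR's quasi-likelihood model). For MMP1 the difference was 1.48 on the log2 scale, with an adjusted p of 0.0208, and for MMP14 it was 0.40, with an adjusted p of 0.0364. Beside them stand the DY131-treated DU145-pc3.1 replicates, which had 4.86 and 1.59 cpm of MMP1 and 372 and 271 cpm of MMP14. Without replicate 1 of that group the values were 2.50 and 0.64, and without replicate 2 they were 0.91 and 0.19, past the test in both cases. Over all 8 omissions of 1 library the interaction of MMP1 passed in 4 and that of MMP14 in 2, and over all 14 alternatives MMP14 passed in 4 and MMP1 in 10. The part of this spread in the result was not tested.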

How the results depend on the processing

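Over the alternatives, 341 log2 fold changes kept their direction and side of the threshold, 27 newly passed, 14 no longer passed and 10 changed sign; of the counts of called members, 94 stayed and 10 moved. MMP1 and MMP14 kept direction and test for DY131 in DU145-Esrrb cells and between the DY131-treated pools under every alternative run. Without a fold threshold the called members were 1 for DY131 in DU145-pc3.1 cells, 2 for DY131 in DU145-Esrrb cells, 2 between the DY131-treated pools and 2 in the interaction. With no filter they were 2 between the DY131-treated pools, where MMP9 joined MMP1, and 3 against untreated control, where it joined MMP1 and MMP14. Leaving out 1 library gave between 0 and 1 called members in the interaction. The interaction of MMP14 no longer passed with DESeq2 (adjusted p = 0.223), library size alone (0.0741), at least 10 reads in every library (0.0715) or the correction (0.0524).

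The correction for junctions, length and GC content changed the sign of TIMP1 for DY131 in DU145-Esrrb cells (0.32), between the DY131-treated pools (0.14), against untreated control (0.45) and in the interaction (0.0075), and of TIMP2 between the DY131-treated pools (-0.10) and in the interaction (-0.19). Leaving out 1 library turned MMP1 for DY131 in DU145-pc3.1 cells (-0.07 without replicate 1 of untreated and -0.91 without replicate 1 of DY131-treated cells, over a range up to 0.68), TIMP2 in the interaction (-0.057 without replicate 1 of DY131-treated DU145-pc3.1 cells, over a range up to 0.19) and TIMP1 against untreated control (0.0056 without library b, over a range down to -0.10). The cause was not tested.

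Over all tested genes, called genes in untreated cells numbered 80, but 48 with DESeq2, 43 with at least 10 reads in every library and 46 to 126 with 1 library left out. The stricter filter gave 315 for 580 with DY131 in DU145-pc3.1 cells, 1090 for 1666 in DU145-Esrrb cells, 721 for 1137 between the DY131-treated pools and 1178 for 1778 against untreated control. Without a fold threshold they were 579, 5185, 8128, 6983, 8214 and 4674 in the order of the comparisons.

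A block for the replicate number, fitted to the 6 libraries that carry one, left 0 members called in both comparisons it allowed, and gave a log2 fold change of 0.44 for MMP14 with DY131 in DU145-pc3.1 cells (adjusted p = 0.00560). The replicate numbers are those of the sample titles, and the column headings of the counts number some of these libraries otherwise. Libraries with the same title number had deviations that correlated at 0.0917, 0.0229 and -0.0685, so these numbers were not taken as pairs. Pairs by heading were not tested, and neither the block nor the correlations speak for them. With 2 libraries a group and floors of 0.260 to 0.382 cpm, MMP2, MMP7, MMP10 and TIMP3 could not be told from 0.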
